A study of Mesocricetus auratus with 24 samples.

Results

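Atp6v0d2 (ENSMAUG00000001919) and Bst1 (ENSMAUG00000009435) were followed in hamster liver as 2 of the 22283 genes of the count table. They were chosen by their measured counts, as genes of the study's list of metabolic genes that differ between HFD and HFD-T070 5% livers and that were near absent in the livers of hamsters on the normal diet. Levels compared with the normal diet are therefore given as descriptions with no test. The list itself was drawn up on these libraries, so a test of HFD-T070 5% compared with HFD is not independent evidence for either gene.

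The libraries came from the livers of 24 male, wild-type golden Syrian hamsters, 1 library per hamster and 8 per group. The normal diet (ND) group received a control diet, the high-fat diet (HFD) group a diet rich in hydrogenated coconut oil, fructose and cholesterol, and the HFD-T070 5% group the same HFD with 5% of Totum-070, a mixture of plant extracts. By the methods, feeding began at 8 weeks of age and lasted 12 weeks, whereas the labels give 6 weeks. Hamsters shared cages, and which libraries came from the same cage was not analysed here.

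Atp6v0d2 encodes an isoform of subunit d of the vacuolar proton pump (V-ATPase), which acidifies lysosomes and other compartments. This isoform is known from macrophages and osteoclasts, whereas the related Atp6v0d1 is expressed in most cells. Bst1, also called CD157, encodes an enzyme anchored at the outer face of the plasma membrane that belongs with CD38 to the ADP-ribosyl cyclases, which use NAD as substrate, and it is known from bone marrow stromal cells, neutrophils and monocytes. Macrophages take up lipid and break it down in acidified lysosomes. These are facts of background and not results of these libraries. The count table carries no gene symbols beyond those paired in the study's list, so markers of macrophages, neutrophils and hepatocytes, the other subunits of the V-ATPase and CD38 were not analysed here. The myeloid label of the pair and the liver label of the tissue were thus not tested against markers.

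Total counts per library ranged from 10789142 to 20740364. The lowest total belonged to HFD replicate 7, and every other library held at least 15289624 counts. Levels are given in CPM, in which counts are made comparable between libraries by their TMM-adjusted totals. The library labelled HFD replicate 1 lay with the ND libraries at both genes. Whether it was assigned to the right group could not be checked from the labels, so HFD values that include it and those that leave it out are both given below for the main results.

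In the ND livers, Atp6v0d2 was next to undetected. A single read was counted in ND replicate 7 and none in the other 7 ND libraries. A count of 0 allows up to 3 counts, which corresponds to 0.174 to 0.218 CPM in these libraries and covers counting error only. Pooled over the ND group, the level was 0.00803 CPM, with an exact Poisson 95% interval from 0.000203 to 0.0447 CPM. Of the 13134 genes that passed the filter on low counts, only 7 had at most 1 count over the ND libraries, and Atp6v0d2 had the highest HFD mean of them. It passed the filter through the HFD-fed groups alone.

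Bst1 was low but counted in each ND library. Its ND counts ranged from 2 to 13 with a median of 6, and its level was 0.481 ± 0.269 CPM (SD, n = 8). Near absence in ND thus described Atp6v0d2 more closely than Bst1. Among the 505 genes that passed the filter with no more ND counts than the 60 of Bst1, 6 had a higher HFD mean. Genes with so few ND counts needed the HFD-fed groups to pass the filter, and Bst1 was chosen for its low ND counts. The rank is therefore a description only.

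Both genes were counted well above the ND level in 7 of the 8 HFD livers. In whole liver, more cells of a type and more RNA per cell cannot be told apart. Atp6v0d2 counts ranged from 0 to 170 in the HFD group with a median of 137, and the mean level was 5.30 ± 2.58 CPM (SD, n = 8). The 0 belonged to HFD replicate 1. The lowest count among the other HFD libraries was 35, in HFD replicate 7, and their mean was 6.05 ± 1.55 CPM (SD, n = 7). Bst1 counts ranged from 8 to 349 with a median of 293, and the mean level was 12.9 ± 6.70 CPM (SD, n = 8). The 8 counts again belonged to HFD replicate 1 and lay within the ND range. Without this library the Bst1 mean was 14.7 ± 4.83 CPM (SD, n = 7).

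Compared with ND, the pooled HFD level of Atp6v0d2 was 707-fold higher, a ratio that rests on 862 counts against 1 and has a 95% counting interval from 127 to 27974. Without HFD replicate 1 it was 781-fold higher (95% counting interval 140 to 30896). For Bst1 the ratio of pooled levels was 26.6 (1948 counts against 60, 95% counting interval 20.6 to 35.1), and without HFD replicate 1 it was 29.3. These intervals leave out the differences between hamsters. At each gene, the 7 HFD libraries other than replicate 1 lay above all 8 ND libraries, as was the case at 13.1% of the genes tested.

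The HFD-T070 5% livers held both transcripts at levels between those of the other groups. Atp6v0d2 counts ranged from 6 to 74 with a median of 14.5, and the mean level was 1.11 ± 1.05 CPM (SD, n = 8). Bst1 counts ranged from 49 to 175 with a median of 81.5, and the mean level was 4.49 ± 1.77 CPM (SD, n = 8). The highest value of each gene belonged to HFD-T070 5% replicate 5. Without it the means were 0.766 ± 0.409 CPM for Atp6v0d2 and 3.94 ± 0.900 CPM for Bst1 (SD, n = 7).

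At both genes, all 8 HFD-T070 5% libraries lay above all 8 ND libraries, which was seen at 10.8% of the genes tested. The pooled HFD-T070 5% level was 144-fold that of ND for Atp6v0d2 (171 counts against 1, 95% counting interval 25.5 to 5713) and 9.48-fold for Bst1 (95% counting interval 7.27 to 12.6). The order of the group means was ND, HFD-T070 5% and HFD for each gene. The neighbours ND and HFD-T070 5% did not overlap, whereas HFD-T070 5% and HFD did. HFD replicate 1 lay below all HFD-T070 5% libraries. HFD-T070 5% replicate 5, with 3.53 CPM of Atp6v0d2 and 8.35 CPM of Bst1, lay above HFD replicate 7 (3.50 CPM) for Atp6v0d2 and above HFD replicate 2 (6.36 CPM) for Bst1. The other 7 HFD-T070 5% libraries lay below the 7 HFD libraries other than replicate 1 at both genes. Both libraries set aside here were picked by their values. The share of all genes tested with such a separation was not computed.

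**Figure D1:**
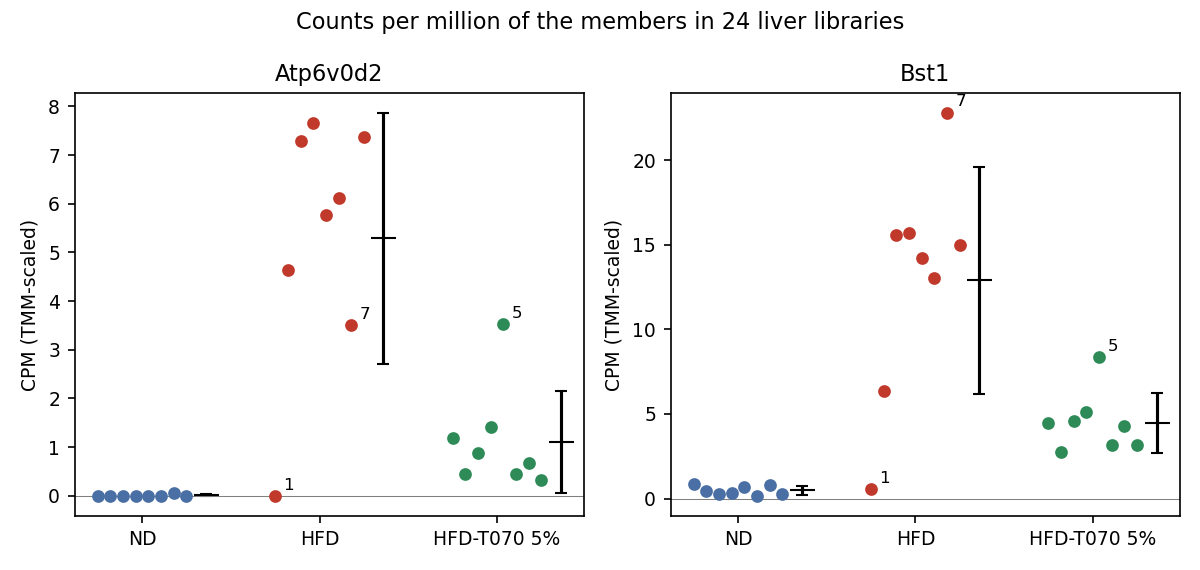
Level of Atp6v0d2 (left) and Bst1 (right) in CPM for each of the 24 libraries, with the mean and SD of each group of 8 beside its points in black. Points stand in the order of the replicate numbers, and HFD replicates 1 and 7 and HFD-T070 5% replicate 5 are numbered. HFD replicate 1 sits at the ND level in both panels, and HFD replicate 7 has the highest Bst1 (22.8 CPM) but the second lowest Atp6v0d2 of the HFD group.

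Whether Totum-070 changes the response of these genes to the HFD was asked with edgeR's quasi-likelihood test over all 24 libraries. The HFD-T070 5% mean of Atp6v0d2 was 21.0% of the HFD mean, and the fit gave a log2 difference of −2.24 with a standard error of 0.48 (edgeR, adjusted p = 0.0177). That of Bst1 was 34.8% of the HFD mean, with a log2 difference of −1.51 and a standard error of 0.36 (edgeR, adjusted p = 0.0232). Both genes were thus lower in the HFD-T070 5% group past the threshold, as were 3.08% of the 13134 genes tested, and the list they belong to was chosen for this difference. Of all genes tested, 7 had a more negative log2 fold change than Atp6v0d2 and 52 had a more negative one than Bst1.

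Without HFD replicate 1 the log2 difference was −2.43 with a standard error of 0.33 for Atp6v0d2 (edgeR, adjusted p = 5.34e-05) and −1.70 with a standard error of 0.23 for Bst1 (edgeR, adjusted p = 3.09e-05), in a fit in which 12.9% of the genes tested were called lower. The HFD-T070 5% means were then 18.4% and 30.6% of the HFD means. Both calls were lost when the ND libraries were left out of the fit (adjusted p = 0.0507 for Atp6v0d2 and 0.0680 for Bst1 from edgeR) and with voom of limma (adjusted p = 0.180 and 0.170), within ranges of 5.34e-05 to 0.180 and 3.09e-05 to 0.170 over all alternatives. The call of Bst1 was also lost without HFD replicate 4 (adjusted p = 0.0561), without HFD-T070 5% replicate 8 (adjusted p = 0.0516) and with an exact two-sided permutation test of log2 CPM over 8 libraries against 8 (p = 0.0760), where Atp6v0d2 gave p = 0.0351.

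**Figure D2:**
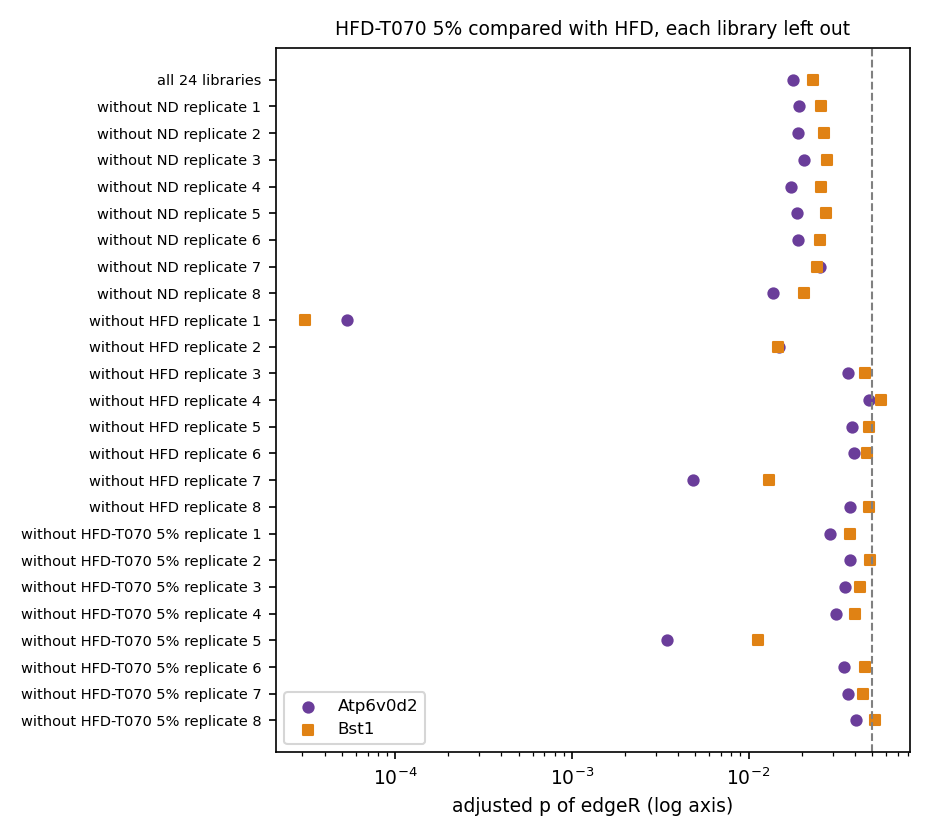
Adjusted p of edgeR for Atp6v0d2 (circles) and Bst1 (squares) in HFD-T070 5% compared with HFD, on a log axis, over all 24 libraries (top) and with each library left out in turn. The dashed line marks 0.05. The leftmost points are those without HFD replicate 1, and the squares without HFD replicate 4 and without HFD-T070 5% replicate 8 lie to the right of the line.

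Relative to Bst1, Atp6v0d2 was lower in the HFD-T070 5% livers than in the HFD livers other than replicate 1. The study's list, drawn from these libraries, already gave a larger fall for Atp6v0d2 than for Bst1. The direction of the ratio was thus known beforehand, and a test of it is not independent evidence. Counts of Atp6v0d2 per 100 counts of Bst1 in the same library need no scaling between libraries. In the HFD group without replicate 1, they ranged from 15.4 to 73.1 with a median of 46.9, and in the HFD-T070 5% group from 10.3 to 42.3 with a median of 17.7. HFD replicate 7 was the lowest of the HFD libraries, and the other 6 lay from 40.7 to 73.1. HFD-T070 5% replicate 5 was the highest of its group and the sole library of it above 40.7, and the other 7 lay from 10.3 to 27.5.

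On the log2 scale, with 0.5 added to each count, the ratio was −1.24 ± 0.69 (SD, n = 7) in the HFD group and −2.30 ± 0.61 (SD, n = 8) in the HFD-T070 5% group. The difference of group means was −1.06, a ratio 2.09-fold lower with Totum-070 (exact two-sided permutation test over 6435 assignments, p = 0.0107). The libraries of both groups overlapped. Of the 8 HFD-T070 5% libraries, 2 lay below the lowest HFD library and 7 below the second lowest. With each remaining library left out in turn the difference ranged from −1.305 to −0.932 (exact permutation p from 0.00133 to 0.0233). Bst1 had a level of its own in ND, which weighs more where both genes are low. With the ND mean of each gene subtracted first, a choice made after the data were seen, the difference was −0.99 (exact two-sided permutation test, p = 0.0157). With all 8 HFD libraries it was −0.71 and did not pass (exact two-sided permutation test, p = 0.161), and in HFD replicate 1 the ratio rests on 0 counts against 8.

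**Figure D3:**
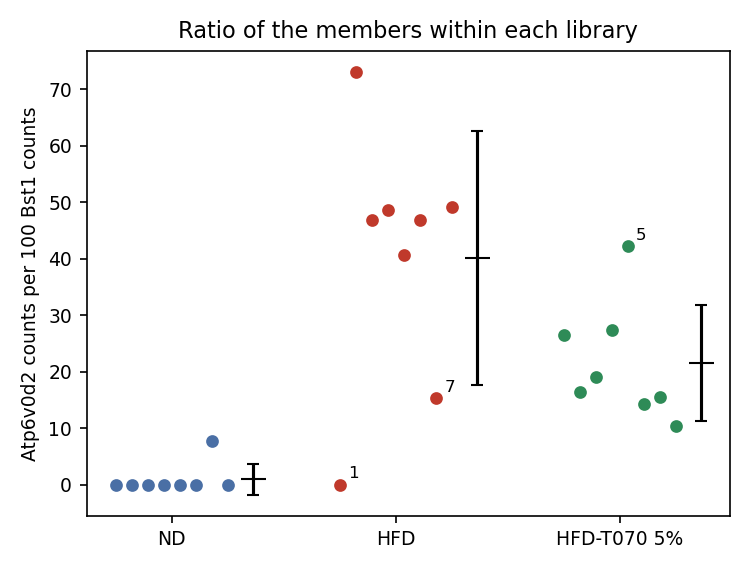
Counts of Atp6v0d2 per 100 counts of Bst1 in each of the 24 libraries, with the mean and SD of each group of 8 in black. The other HFD libraries lie from 40.7 to 73.1, HFD replicates 1 and 7 lie at 0 and 15.4, and 7 of the 8 HFD-T070 5% libraries lie from 10.3 to 27.5.

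Within the HFD-T070 5% group, the hamsters with more Atp6v0d2 also had more Bst1. Over its 8 libraries, the log2 CPM of the genes had a Pearson r of 0.962 (exact permutation p = 0.000570, adjusted p = 0.00570 over 10 correlations) and a Spearman rho of 0.952 (exact permutation p = 0.00114, adjusted p = 0.0114). Covariation within a group was not used to choose the genes. The share of all genes that correlated as strongly with either gene in these 8 libraries was not computed. A relation particular to the pair is therefore not shown. In a ranking over both HFD-fed groups without HFD replicate 1, given below, Bst1 stood at 486 of 13133 genes for likeness to Atp6v0d2. Without replicate 5, the highest at both genes, r was 0.901 (exact permutation p = 0.0117, n = 7). Without the 2 libraries farthest from the median of Atp6v0d2, r was 0.905 (exact permutation p = 0.0125, n = 6, adjusted p = 0.125 over the 10 correlations).

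Among the 7 HFD libraries other than replicate 1, no correlation of the genes was detected. The Pearson r was −0.00280 (exact permutation p = 0.997, n = 7) and Spearman's rho was 0.179 (exact permutation p = 0.713, n = 7). This value rested on single libraries. HFD replicate 7 had the lowest Atp6v0d2 and the highest Bst1 of the 7 and the lowest total count. Without it, r was 0.888 (exact permutation p = 0.0125, n = 6), and without HFD replicate 2, the lowest in Bst1, it was −0.748 (exact permutation p = 0.156, n = 6). Over all 8 HFD libraries r was 0.934 (exact permutation p = 0.0766, n = 8), which rests on replicate 1, far below the rest at both genes. Whether the relation differed between hamsters with and without Totum-070 was not tested.

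**Figure D4:**
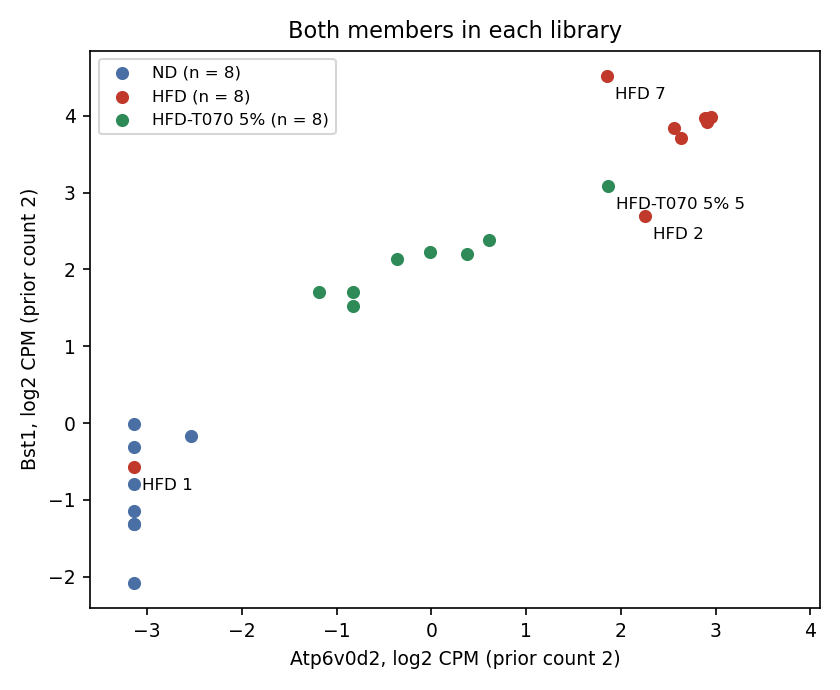
Log2 CPM of Bst1 (vertical) against log2 CPM of Atp6v0d2 (horizontal) in each of the 24 libraries, coloured by group, with a prior count of 2. The HFD-T070 5% libraries rise together along a line up to replicate 5, and HFD replicate 1 lies among the ND libraries. Leaving replicate 1 aside, HFD replicate 7 lies above and to the left of the other HFD libraries.

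In the HFD-fed groups, the spread between hamsters exceeded the counting error at both genes. In the HFD-T070 5% group the coefficient of variation was 94.2% for Atp6v0d2, where counting alone gives 22.0%, and 39.4% for Bst1, where counting gives 11.0%. Without replicate 5 of that group it was 53.4% for Atp6v0d2 (counting 26.8%) and 22.9% for Bst1 (counting 11.8%). Over all 8 HFD libraries it was 48.7% for Atp6v0d2 (counting 9.98%) and 51.9% for Bst1 (counting 6.39%). Without HFD replicate 1 it was 25.6% for Atp6v0d2 (counting 9.18%) and 33.0% for Bst1 (counting 5.89%). In ND, the 55.9% of Bst1 stood nearer to the 36.5% of counting, and the single count of Atp6v0d2 gave no spread beyond counting. The biological coefficient of variation that edgeR estimated over all 24 libraries was 78.5% for Atp6v0d2 and 54.9% for Bst1, whereas the median of the genes tested was 17.0%.

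Alox5 and Pla2g7 are further genes of the study's list that macrophages are known to express, picked without a marker list, and other listed genes such as Hk2 are also known from macrophages. Alox5 (ENSMAUG00000018983), the lipoxygenase that starts leukotriene synthesis, was counted at 0.191 ± 0.125 CPM in ND, 2.43 ± 1.60 CPM in HFD and 0.973 ± 0.369 CPM in HFD-T070 5% (SD, n = 8 each). Pla2g7 (ENSMAUG00000019624), which degrades platelet-activating factor, was counted at 6.98 ± 1.70 CPM, 66.3 ± 32.0 CPM and 33.1 ± 6.43 CPM in the same order (SD, n = 8 each). The HFD-T070 5% means were 40.1% of the HFD mean for Alox5 and 49.9% for Pla2g7, against 21.0% for Atp6v0d2 and 34.8% for Bst1. Without HFD replicate 1 the values of Alox5 and Pla2g7 were 35.5% and 44.4%. Listed genes not picked for macrophages fell as well, and the list was chosen on these libraries for a difference between these 2 groups. In the edgeR fit, Alpl was 4.26-fold and Asns 4.20-fold lower in HFD-T070 5% than in HFD, against 4.73-fold for Atp6v0d2 and 2.85-fold for Bst1. The rise over ND was not shared by all listed genes. In HFD compared with ND, the log2 differences of Lipg, Acly and Sqle were −1.20, −1.35 and −1.54, with standard errors of 0.62, 0.90 and 0.28. Without HFD replicate 1 the log2 differences of these 3 genes were −2.73, −4.65 and −1.80. HFD replicate 7 had the lowest Alox5 (0.600 CPM) and Pla2g7 (40.4 CPM) of the 7 HFD libraries, as it had for Atp6v0d2 but not for Bst1.

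Within the HFD group without replicate 1, Atp6v0d2 had a Pearson r of 0.881 with Alox5 (exact permutation p = 0.0129, adjusted p = 0.0645, n = 7) and of 0.881 with Pla2g7 (exact permutation p = 0.0196, adjusted p = 0.0655, n = 7). The corresponding values of Spearman's rho were 0.750 (exact permutation p = 0.0663) and 0.464 (exact permutation p = 0.302). Without the 2 libraries farthest from the median of Atp6v0d2 the r values were 0.0479 and −0.0708, so these relations rested on those libraries. For Bst1 in the same libraries, r was −0.110 with Alox5 (exact permutation p = 0.818, n = 7) and 0.196 with Pla2g7 (exact permutation p = 0.615, n = 7). Within the HFD-T070 5% group, Pla2g7 had an r of 0.700 with Atp6v0d2 (exact permutation p = 0.0487, adjusted p = 0.0975, n = 8) and of 0.716 with Bst1 (exact permutation p = 0.0394, adjusted p = 0.0975, n = 8). Spearman's rho was 0.571 (exact permutation p = 0.151) and 0.476 (exact permutation p = 0.243), and without the 2 libraries farthest from the median the r values were 0.0849 and 0.399. Alox5 in the same group had an r of 0.297 with Atp6v0d2 (exact permutation p = 0.480, n = 8) and of 0.346 with Bst1 (exact permutation p = 0.407, n = 8). Of the 10 correlations of Atp6v0d2 or Bst1 computed among HFD-fed hamsters, that between the pair in the HFD-T070 5% group alone had an adjusted p under 0.05.

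Likeness to each gene was also ranked over all genes tested, with the Pearson r of log2 CPM over the 15 HFD and HFD-T070 5% libraries other than HFD replicate 1, each group centred on its mean. These values are descriptions, and the libraries share their depth and composition across all genes. Bst1 ranked 486 of 13133 genes for likeness to Atp6v0d2 (r = 0.625), and Atp6v0d2 ranked 619 for likeness to Bst1. Among the listed genes with a symbol, Mboat2 (r = 0.710, rank 198) and Asns (r = 0.657, rank 360) were more like Atp6v0d2 than Bst1 was. The listed genes more like Bst1 than Atp6v0d2 was were B3galnt1 (r = 0.685, rank 378), Acss1 (r = 0.677, rank 410) and Hk2 (r = 0.666, rank 458). Pla2g7 ranked 675 and Alox5 2216 for likeness to Atp6v0d2, and they ranked 2484 and 6093 for likeness to Bst1. The remaining listed genes ranked from 1367 (B3galnt1) to 11952 (Acly) for Atp6v0d2 and from 643 (Mthfd2) to 10956 (Lipg) for Bst1. The gene most like Atp6v0d2 was ENSMAUG00000015817 (r = 0.948), and the gene most like Bst1 was ENSMAUG00000018309 (r = 0.952), neither of which has a symbol in the sources used here.

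The ranking depended on HFD replicate 1. With it, over 16 libraries, Bst1 ranked 142 for likeness to Atp6v0d2 (r = 0.926), ahead of Asns (r = 0.921, rank 173) and Mboat2 (r = 0.901, rank 274), and Atp6v0d2 ranked 224 for likeness to Bst1. B3galnt1 (rank 126) and Hk2 (rank 141) were then more like Bst1 than Atp6v0d2 was, whereas Acss1 (rank 433) was not. ENSMAUG00000015817 was at rank 4 for Atp6v0d2 (r = 0.978) and ENSMAUG00000018309 at rank 2 for Bst1 (r = 0.989).

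ENSMAUG00000015817 and ENSMAUG00000018309 followed the group order of the pair. ENSMAUG00000015817 was counted at 0.160 ± 0.124 CPM in ND, 4.72 ± 2.31 CPM in HFD and 1.36 ± 0.994 CPM in HFD-T070 5% (SD, n = 8 each). ENSMAUG00000018309 was counted at 1.37 ± 0.417 CPM, 24.6 ± 13.2 CPM and 8.54 ± 3.65 CPM in the same order (SD, n = 8 each). HFD replicate 1 held 0.279 CPM of the former and 1.67 CPM of the latter, each near the ND mean.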

How the data were processed

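Per the labels and the methods, strand-specific libraries of RNA freed of ribosomal RNA were sequenced, and single-end reads of 75 cycles were trimmed with Trimmomatic 0.36 and mapped to MesAur1 with STAR 2.7.10. The values the authors deposited are raw STAR counts per gene, without normalization. The annotation release and the strand setting are not given in the sources used here, so how reads of overlapping genes were counted cannot be checked. Reads shared with related genes such as Atp6v0d1 and CD38 were not analysed here.

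From the counts, genes were kept by filterByExpr (minimum count 10, minimum total 15) and tested with edgeR 4.0.16 (TMM, glmQLFit, glmQLFTest, R 4.3.3) in 1 fit of 24 libraries and 3 groups, with Benjamini–Hochberg adjustment over 13134 genes. The standard error of a log2 difference was taken as its size over the square root of F. Log2 CPM used a prior count of 2. Permutation tests were exact and two-sided. The edgeR fit, the likeness ranking and the permutation tests were also run on simulated data, and the outcome is not reported here. Alternatives included DESeq2 1.42.0 and limma 3.58.1.

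The genes, the correlations, the ratio and the omission of HFD replicate 1 from both were chosen with earlier results of these data known. The named genes are the pair, Alox5, Pla2g7, the listed genes by their rank of likeness, and the 2 genes without a symbol that had the highest r. The RefSeq gene table (BCM_Maur_2.0) holds no Ensembl identifiers and matched none, so lists of pathway and marker genes, lengths, promoters and sequences were not analysed here.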

Additional observations from a re-analysis of the deposited data

Results flagged for a closer look

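In 14 sets of 7 or 8 values (log2 CPM of Atp6v0d2, Bst1, Alox5 and Pla2g7 in each group, and the log2 ratio of Atp6v0d2 to Bst1 in the HFD group without replicate 1 and the HFD-T070 5% group), the highest and the lowest value were set against Dixon's critical value for the gap to the next one, as a share of the range. Chance passes it in about 1 of 20 sets of independent, normally distributed values, and 5 values did, 3 of them in the library labelled HFD replicate 1. That library was already known to lie with ND, so its 3 flags are not separate events. The ND values of Atp6v0d2 were all 0 counts but for a single read, which fixed that flag in advance. The number of flags is therefore not set against the rate of chance.

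HFD replicate 1 stood below the other HFD libraries at −3.14 for Atp6v0d2 (no count), −0.58 for Bst1 and 3.00 for Pla2g7. ND replicate 7 stood above the other ND libraries for Atp6v0d2 at −2.53, which is the single read counted in that group. HFD replicate 7, the library with the lowest total, had a log2 ratio of Atp6v0d2 to Bst1 of −2.69. It stood below the other HFD libraries of that set, which leaves out replicate 1. The part of depth in the last value was not tested.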

How the results depend on the processing

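In HFD-T070 5% compared with HFD, the direction held under all 34 alternatives for each gene, and the call under 32 for Atp6v0d2 and 29 for Bst1. Of the 34, 24 left out a single library, among them the ND libraries, which lie outside this comparison. The permutation tests were counted by their unadjusted p. With only the groups compared, the log2 fold changes were −2.248 and −1.522, and with voom they were −2.024 and −1.176. The exact permutation test gave −1.135 for Bst1. Without HFD replicate 1, added after the data were seen, the exact permutation p was 0.000466 for each gene. With each library left out, the log2 fold change of Bst1 ranged from −1.705 to −1.369. The replicate numbers did not pair the libraries (r over genes −0.242 to 0.495, above 0.1 in 2 of 8 pairs, and 2 of 8 libraries correlated best with their own number). With the replicate block, the log2 fold changes were −2.273 (adjusted p = 0.0354 from edgeR) and −1.430 (adjusted p = 0.0484), and 346 genes instead of 624 were called. Other counts of calls were 142 with only the groups compared, 357 with voom, 1209 with DESeq2 and 2935 without HFD replicate 1.

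The correlation within HFD was 0.275 with library totals, 0.179 as Spearman's rho, 0.822 without the 2 libraries farthest from the median and 0.934 over all 8 libraries, and ranged from −0.748 to 0.888 with each library left out, an alternative added after the data were seen. Within HFD-T070 5% it was 0.905 without the 2 farthest libraries. The log2 difference of the ratio was −0.708 with all 8 HFD libraries, and it kept its direction under the other 18 alternatives, of which the ratio of summed counts has no test. The cause of each change was not tested. A minimum of 10 counts in every library leaves out both genes. Within a single library, a count of 0 could not be told apart from a level of up to 3 counts.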
